A study of Mus musculus with 24 samples.

Results

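The genes described here are 9 genes of the primitive endoderm, the extraembryonic lineage that segregates from the epiblast inside the mouse blastocyst: Gata6, Gata4, Sox17, Sox7, Pdgfra, Dab2, Foxa2, Hnf4a and Hhex. Every ATAC-seq interval overlapping one of their gene bodies, or lying within 20 kb of either end, was taken as a member. Of 299780 intervals in the untreated cells 112 were members, and of 272268 intervals in the treated cells 113 were. In each set 57 of them overlapped a gene body. ATAC-seq reads chromatin accessibility from the insertions of the Tn5 transposase, and the unit is normalized reads per interval of 201 bases. All libraries came from E14, a mouse embryonic stem cell line, kept on gelatin in FBS/LIF medium. Wild type cells (WT) were set beside a pair of Smad2 knockout (KO) lines named Smad2_KO1 and Smad2_KO2. Cultures of the 3 lines either had no inhibitor (Ctrl) or had 200 nM INK128 for 12 hours, an mTOR inhibitor that places stem cells in a paused state (Paused). The 6 groups had 4 libraries each, with 50000 cells per library. The labels do not state how the KO lines were made or whether replicates were separate cultures, so p-values measure the spread between these libraries, which may be technical.

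In the blastocyst, FGF signalling drives a subset of inner cell mass cells to keep GATA6 and lose NANOG. GATA6 is followed by PDGFRA, SOX17, GATA4 and SOX7, and the adaptor DAB2 then helps to order the cells into an epithelium. FOXA2, HNF4A and HHEX act later, in the visceral endoderm that forms from this lineage. SMAD2 carries Nodal and Activin signals into the nucleus, where it works with FOXH1 and other factors. Embryonic stem cells correspond to the epiblast side of this choice, and accessibility at an endoderm gene is not expression of it.

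The stretches before 4 annotated starts are shown because these were the starts whose 250 preceding bases shared sequence with an interval in both treatments. They come from RefSeq, build GRCm38.p6, which is the build named mm10 in the submitters' processing notes, and are given on the plus strand, on which these genes lie. Capitals mark matches to the motifs named after them.
Hnf4a, upstream start, chr2:163506607-163506810: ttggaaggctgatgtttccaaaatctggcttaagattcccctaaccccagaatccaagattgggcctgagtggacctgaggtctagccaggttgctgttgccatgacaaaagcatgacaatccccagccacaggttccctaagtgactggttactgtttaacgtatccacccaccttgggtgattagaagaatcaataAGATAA
Hnf4a, downstream start, chr2:163546905-163547154: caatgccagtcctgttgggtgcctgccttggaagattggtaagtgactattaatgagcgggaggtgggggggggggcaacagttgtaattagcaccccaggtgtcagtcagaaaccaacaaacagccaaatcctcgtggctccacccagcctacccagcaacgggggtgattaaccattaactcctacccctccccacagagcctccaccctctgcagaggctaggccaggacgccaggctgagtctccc
Dab2, downstream start, chr15:6386498-6386747: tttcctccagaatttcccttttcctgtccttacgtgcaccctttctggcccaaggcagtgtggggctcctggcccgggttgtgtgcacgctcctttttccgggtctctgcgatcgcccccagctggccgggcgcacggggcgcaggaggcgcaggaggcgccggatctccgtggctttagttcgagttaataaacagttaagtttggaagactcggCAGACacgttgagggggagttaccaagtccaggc
Hhex, chr19:37434591-37434840: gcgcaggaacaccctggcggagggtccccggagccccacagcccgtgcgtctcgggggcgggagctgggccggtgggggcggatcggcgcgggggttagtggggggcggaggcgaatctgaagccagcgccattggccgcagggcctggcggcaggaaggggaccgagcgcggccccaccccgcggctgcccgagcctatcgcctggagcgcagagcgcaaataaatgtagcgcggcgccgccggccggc

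The motifs searched, on both strands, were CAGAC for SMAD factors, TGTGGAT for FOXH1, AGATAA for GATA factors, ACAAAG for SOX factors and TGTTTAC for FOXA factors. The upstream Hnf4a stretch is printed without the last 46 bases before its start, which lie inside the annotated gene body, and the GATA match at its end begins 52 bases ahead of that start. The SMAD match before the Dab2 start begins 34 bases ahead. No motif matched in the other pair of stretches. The table held 9 promoters for 5 of the 9 members, and of these 3 had the SMAD motif (both of Dab2 and that of Pdgfra), 2 the GATA motif (1 each of Foxa2 and Hnf4a) and 1 the SOX motif (of Foxa2). No match overlapped another. Among 32536 promoter stretches of the same length, 42.2% held the SMAD motif, 9.97% the GATA motif, 16.5% the SOX motif, 2.78% the FOXH1 motif and 3.17% the FOXA motif. Base composition set the printed starts apart from each other. Over the 250 bases before the start, Hhex had 76.0% G and C with 32 CpG sites and Dab2 60% with 17, while the Hnf4a stretches had 51.2% with 3 and 57.6% with 4.

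Reads recovered from the deposited values came to 11.8 to 16.5 M (megareads) per library for Ctrl and 11.5 to 20.0 M for Paused. The KO lines were hard to tell apart. Between Smad2_KO1 and Smad2_KO2 libraries of the same replicate number, the chi-square per degree of freedom over the recovered reads was 1.0013 to 1.0737 in Paused and 1.0161 to 1.2698 in Ctrl. Libraries of these lines with different numbers differed by 1.099 to 1.487 in Paused and 1.117 to 1.534 in Ctrl, libraries within a KO line by 1.11 to 1.48 over both treatments, and WT libraries by 1.21 to 1.92. So in Paused every same-numbered pair across the KO lines was more alike than any pair within a line, while in Ctrl the ranges overlapped. Whether same-numbered KO libraries share material was not tested, and if they do the KO lines are not independent of each other. In Paused, the replicate 2 libraries of the KO lines differed by less than sampling noise (1.0013, limit 1.0055). Because the labels place them in different lines they were kept as separate samples, and counts with each left out or with the pairs averaged are given beside the main counts. At the Smad2 gene itself none of 7 intervals was called in Ctrl, and of 11 in Paused 2 were called higher and 0 lower. Its strongest interval had 362 ± 44.6 normalized reads in WT beside 363 ± 42.6 in Smad2_KO1 and 355 ± 23.1 in Smad2_KO2 in Ctrl (SD, n = 4), and 441 ± 90.8, 399.6 ± 15.0 and 389 ± 26.9 in Paused, so accessibility does not check the knockout.

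**Figure D1:**
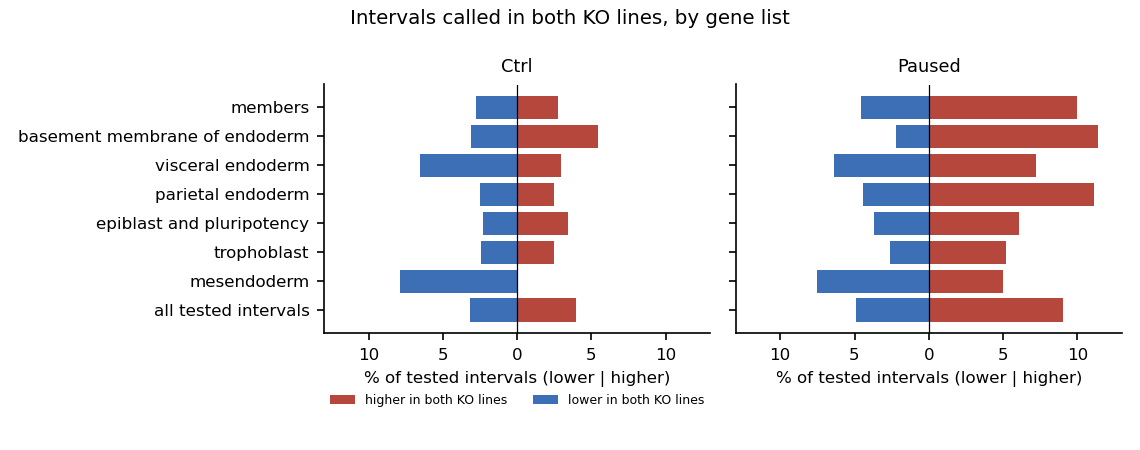
Share of tested intervals called lower (blue, left) and higher (red, right) in both KO lines, in % of the tested intervals of each gene list, in Ctrl and Paused. The member bars lie near those of all tested intervals, with 6 of 109 called in Ctrl and 16 of 110 in Paused.

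Loss of Smad2 went with changed accessibility at few of the member intervals, and in both treatments the share called in each of the KO lines was near that of the genome. In bulk libraries a site less open in every cell and a site open in fewer cells cannot be told apart. In Ctrl 6 of the 109 tested member intervals (5.5%) were called in both KO lines, against 7.15% of all 282089 tested intervals: 3 were higher, at Hnf4a and Hhex, and 3 lower, at Foxa2, Gata4 and Gata6. In Paused 16 of 110 (14.5%) were called against 13.9% of 260539: 11 were higher, at Hnf4a, Sox7, Gata4, Gata6, Pdgfra and Dab2, and 5 lower, at Foxa2, Gata4, Pdgfra and Sox17. A call required an adjusted p under 0.05 in limma for each KO line against WT, with the same sign. By direction the background was 3.95% higher and 3.2% lower in Ctrl, and 9.01% higher and 4.92% lower in Paused. For each KO line alone against WT, 13 member intervals passed in Smad2_KO1 (background 11.6%) and 15 in Smad2_KO2 (10.7%) in Ctrl, and 19 (19.4%) and 24 (19.3%) in Paused. All 8 KO libraries lay above all WT libraries at 2 tested member intervals in Ctrl (4.16% of all) and 8 in Paused (7.25%), and below them at 3 (3.32%) and 3 (4.2%). edgeR called 6 (7.34% of all) and 16 (13.7%). The authors' deposited table has a false discovery rate under 0.05 at 14 member intervals in Ctrl and 21 in Paused, beside 12.2% and 21.6% of all its intervals. Between Smad2_KO1 and Smad2_KO2 no member interval was called by limma, edgeR or DESeq2, and limma called none of all tested intervals (background 0). At an unadjusted p under 0.05 limma took 0 members in Ctrl and 3 in Paused, beside 3.28% and 1.97% of all. The direction of calls depended on the scaling: among all calls 55.2% were higher in Ctrl and 64.7% in Paused with the deposited scaling, but 37.4% and 41.0% with DESeq2 size factors, when the member counts became 0 higher and 7 lower in Ctrl and 10 higher and 7 lower in Paused. With those factors the members called were 6.42% in Ctrl, against 7.58% of all, and 15.5% in Paused, against 14.7%. With the 8 KO libraries as 1 group, which needs 1 test in place of 2, 28 member intervals (25.7%) were called in Ctrl, 20 higher and 8 lower, against 17.6% of all, and 29 (26.4%) in Paused against 28.7%. The Ctrl share was then above the background, a difference that was not tested. Averaging the KO libraries of each replicate number, also 1 test, gave 17 calls (15.6%) in Ctrl against 13% of all and 20 (18.2%) in Paused against 19.8%. Leaving out replicate 2 of Smad2_KO1 or of Smad2_KO2 in Paused gave 10 (9.09%, against 9.74% of all) and 14 (12.7%, against 9.68%).

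**Figure D2:**
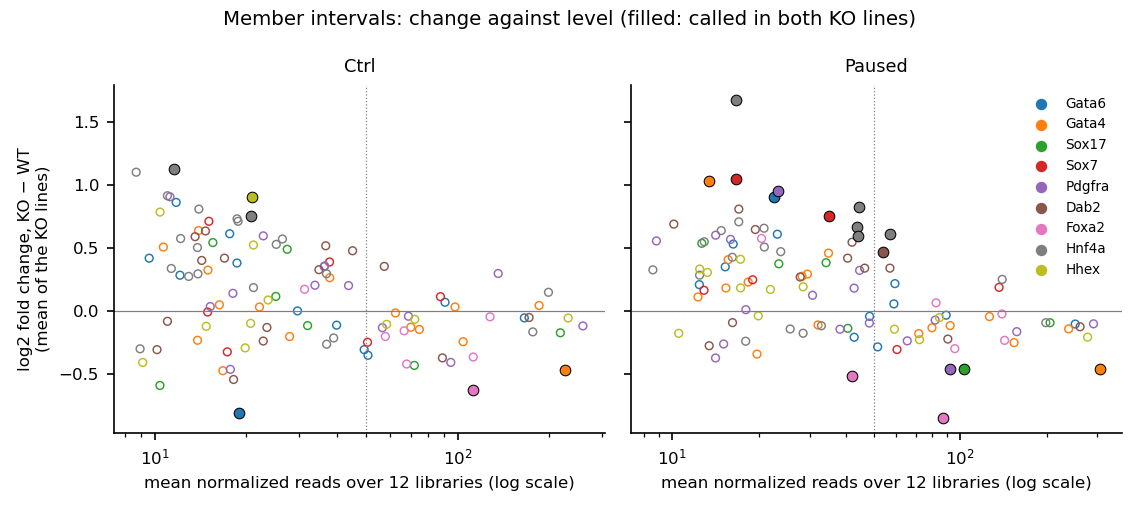
Log2 fold change of each tested member interval (mean of the KO lines against WT, log2(value + 1) scale) against its mean normalized reads over 12 libraries (log scale), coloured by gene, with filled points called in both KO lines. In both treatments points left of the dotted line at 50 normalized reads lie mostly above 0 and points right of it mostly below, with medians of 0.33 and -0.13 in Paused.

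Weakly and strongly accessible member intervals differed in direction, and so did all intervals of the tables. Under a mean of 50 normalized reads, a split chosen after the data were seen, the median log2 fold change (the mean of the KO lines against WT) was 0.30 over 76 member intervals in Ctrl and 0.33 over 73 in Paused, beside 0.15 and 0.23 over all intervals of that level. At 50 or more it was -0.13 over 33 intervals in Ctrl and -0.13 over 37 in Paused, beside -0.05 and -0.08. Under this level the members had 3 higher and 1 lower calls in Ctrl, where 4% and 2.25% of all such intervals were called, and 9 and 1 in Paused, against 10.1% and 2.27%. At or above it they had 0 higher and 2 lower in Ctrl, against 3.78% and 6.17%, and 2 and 4 in Paused, against 6.21% and 11.7%. Over all levels the median was 0.05 in Ctrl and 0.18 in Paused, against 0.08 and 0.12 for all tested intervals. With DESeq2 size factors the Ctrl median of the members was -0.02. Cyclic loess along the level moved the median of all Paused intervals to -0.0011 and that of the members to 0.02. It gave 9 Paused member calls (8.18%) in place of 16 (14.5%), while the share of all Paused intervals called went from 13.9% to 9.65%.

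Gata6 encodes the zinc finger factor that starts the primitive endoderm programme, and its strongest interval lies across the lower end of the gene body (chr18:11052336-11052536). There the Ctrl level was 170 ± 12.0 normalized reads in WT beside 159 ± 18.3 in Smad2_KO1 and 169 ± 11.6 in Smad2_KO2 (SD, n = 4), and neither KO line passed the test (limma, adjusted p = 0.596 and 0.965). In Paused it was 264 ± 25.8, 248 ± 24.3 and 242 ± 16.5, with adjusted p = 0.536 and 0.387 in limma. The interval at this end of the gene was open in every library, and the lines overlapped.

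Farther out, Gata6 had 1 call in each treatment, at different intervals. In Ctrl the interval 2.97 kb before the lower end (chr18:11049341-11049541) had 24.6, 25.98, 34.0 and 22.7 normalized reads in the WT libraries. Smad2_KO1 had 20.5, 10.3, 12.2 and 15.0 and Smad2_KO2 had 12.0, 17.3, 20.2 and 13.1. Every KO library was below every WT library. On the log2 scale the KO lines differed from WT by -0.87 ± 0.25 and -0.75 ± 0.25 (± SE; adjusted p in limma = 0.0154 and 0.0399), and the call was lost in 11 of 24 alternatives. In 8 of these 1 library was left out (WT replicates 1 to 3, Smad2_KO1 replicates 2 and 3, or Smad2_KO2 replicates 1, 2 and 4), and the larger adjusted p in limma of the KO lines was then 0.0509 to 0.133. In Paused the interval 7.55 kb before the gene (chr18:11044761-11044961) rose from 13.7 ± 3.00 in WT to 26.4 ± 7.10 and 27.8 ± 9.33, a log2 fold change of 0.89 and 0.93 (limma, adjusted p = 0.0116 and 0.00863). One Smad2_KO2 library, at 14.6, lay within the WT range of 9.72 to 16.1, and 5 of 24 alternatives lost the call, among them cyclic loess and leaving out Smad2_KO1 replicate 2 or Smad2_KO2 replicate 1 (limma, larger adjusted p = 0.0634 and 0.0523). The matching Ctrl interval (chr18:11044773-11044973) had log2 fold changes of 0.71 and 1.01 without a call (limma, adjusted p = 0.194 and 0.0581).

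Gata4 encodes the related factor that follows GATA6 in this lineage. The strongest interval of its window fell in both KO lines and in both treatments, yet it lies inside the body of another gene, Neil2, a DNA repair glycosylase, 4.95 kb before the lower end of Gata4 (chr14:63193761-63193961 in Ctrl). In Ctrl the WT libraries had 291, 261, 238 and 321 normalized reads. Smad2_KO1 had 205, 169.6, 211 and 237, and Smad2_KO2 had 178, 200.2, 198 and 198. All KO libraries were below all WT libraries, by a narrow margin between the highest KO and the lowest WT value. This was a log2 fold change of -0.43 ± 0.10 in Smad2_KO1 and -0.51 ± 0.10 in Smad2_KO2 (± SE; adjusted p in limma = 0.00409 and 0.000756).

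In Paused the same place (chr14:63193758-63193958) had 424, 333, 337 and 404 normalized reads in WT. Smad2_KO1 had 215, 270.05, 281 and 270.2, and Smad2_KO2 had 251, 295, 279.5 and 305. The KO libraries again lay below the WT libraries without overlap, with log2 fold changes of -0.53 and -0.40 (limma, adjusted p = 0.000161 and 0.00314). The call held in all 24 alternatives in Ctrl and in all 24 in Paused. Whether the interval serves Gata4, Neil2 or neither cannot be told from accessibility.

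Inside the Gata4 gene body the picture differed. Near its lower end (chr14:63199402-63199602) the interval was weak in Ctrl, at 16.1 ± 5.19 normalized reads in WT beside 16.4 ± 5.23 in Smad2_KO1 and 16.6 ± 0.706 in Smad2_KO2, and was not called. The sole interval called inside the gene, in Paused (chr14:63200499-63200699), rose from 7.44 ± 1.82 in WT to 15.4 ± 3.77 and 17.5 ± 4.77. All WT values were under 10 normalized reads, the level needed in at least 4 libraries for a test. The interval was thus tested only through its KO libraries. Relative to WT the log2 change was 0.95 for Smad2_KO1 and 1.12 for Smad2_KO2 (limma, adjusted p = 0.0202 and 0.00664), with no overlap between WT and KO libraries. The call was lost in 5 of 24 alternatives, among them leaving out Smad2_KO1 replicate 2 or 3 (limma, larger adjusted p = 0.0746 and 0.0773). Of 17 tested Gata4 intervals in Paused, 7 had positive and 9 negative fold changes in both KO lines. The matching shares of all tested intervals were not computed.

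Sox17 encodes an HMG box factor of the primitive endoderm, and Sox7 a related factor that appears as the lineage matures. The strongest Sox17 interval, inside the gene (chr1:4492918-4493118), had 237 ± 25.3 normalized reads in WT beside 217 ± 12.9 in Smad2_KO1 and 202 ± 13.9 in Smad2_KO2 in Ctrl and was not called. Near the higher end of Sox17, a Paused interval (chr1:4496553-4496753) fell from 126 ± 13.9 in WT to 97.6 ± 20.1 and 86.8 ± 14.2. On the log2 scale the KO lines differed from WT by -0.38 and -0.54 (limma, adjusted p = 0.0435 and 0.00474). The Smad2_KO1 libraries at 113 and 116 lay above the lowest WT library at 108, and 8 of 24 alternatives lost the call. Among them was leaving out WT replicate 1, 3 or 4 or Smad2_KO1 replicate 1 or 4, where the larger adjusted p in limma was 0.0566 to 0.209. The nearest Ctrl interval (chr1:4496629-4496829) passed in Smad2_KO2 but not in Smad2_KO1, at -0.47 and -0.40 (limma, adjusted p = 0.0280 and 0.0611).

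Sox7 had 2 higher calls in Paused, both before the gene, and none in Ctrl, where the matching intervals had positive fold changes in both KO lines. At 10.3 kb (chr14:63933199-63933399) WT had 24.8, 21.5, 29.1 and 19.9 normalized reads. Smad2_KO1 had 40.9, 45.3, 42.3 and 34.8, and Smad2_KO2 had 39.95, 41.3, 40.4 and 39.4. Every KO library was above every WT library. This was a log2 fold change of 0.76 in Smad2_KO1 and 0.75 in Smad2_KO2 (limma, adjusted p = 0.00238 and 0.00287), and 1 of 24 alternatives, the DESeq2 Wald test, lost the call. The second interval, 17.8 kb before the gene (chr14:63925666-63925866), had 9.47 ± 4.12, 19.6 ± 7.40 and 20.9 ± 6.04 normalized reads, with log2 fold changes of 0.99 and 1.10 (limma, adjusted p = 0.0178 and 0.00848), and some KO libraries fell within the WT range. This call was lost in 6 of 24 alternatives, among them leaving out WT replicate 1, Smad2_KO1 replicate 1 or Smad2_KO1 replicate 2 (limma, adjusted p = 0.0742, 0.0925 and 0.0747 for Smad2_KO1). In Ctrl the log2 fold changes were 0.39 and 0.39 at the nearer interval (chr14:63933210-63933410; limma, adjusted p = 0.155 and 0.171) and 0.67 and 0.76 at the farther one (chr14:63925649-63925849; limma, adjusted p = 0.120 and 0.0755). The strongest Sox7 interval was not called in either treatment.

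Pdgfra encodes the receptor for PDGF that marks primitive endoderm precursors at the cell surface. Its strongest interval, inside the gene (chr5:75155778-75155978), had 273 ± 11.9 normalized reads in WT beside 257 ± 30.1 in Smad2_KO1 and 248 ± 16.1 in Smad2_KO2 in Ctrl and was not called in either treatment. In Ctrl none of the 14 tested intervals was called, where 7.15% of all tested intervals were. In Paused an interval 17.7 kb past the gene (chr5:75215900-75216100) had 14.0, 10.7, 15.1 and 15.9 in WT. Smad2_KO1 had 34.2, 26.3, 26.8 and 25.8, and Smad2_KO2 had 24.0, 36.0, 28.1 and 23.0. All KO libraries were above all WT libraries. Relative to WT the log2 change was 0.97 for Smad2_KO1 and 0.94 for Smad2_KO2 (limma, adjusted p = 0.00165 and 0.00247), and all 24 alternatives kept the call. The matching Ctrl interval (chr5:75215878-75216078) had 0.72 and 0.47, and passed in Smad2_KO1 but not in Smad2_KO2 (limma, adjusted p = 0.0351 and 0.201).

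A second Pdgfra interval, 2.36 kb before the annotated gene (chr5:75148767-75148967), fell in Paused from 113 ± 22.4 in WT to 80.2 ± 14.3 and 83.6 ± 19.1. On the log2 scale the KO lines differed from WT by -0.49 and -0.44 (limma, adjusted p = 0.0190 and 0.0341). WT and KO libraries overlapped, and 8 of 24 alternatives lost the call. It did not hold without WT replicate 1 or 4, Smad2_KO1 replicate 2 or 4, or Smad2_KO2 replicate 1 or 3, with a larger adjusted p in limma of 0.0520 to 0.183. Its Ctrl match (chr5:75148851-75149051) had log2 fold changes of -0.34 and -0.48 and passed in Smad2_KO2 but not in Smad2_KO1 (limma, adjusted p = 0.0967 and 0.0187). The interval over the annotated start itself (chr5:75152094-75152294) was listed in Paused and weak, at 16.7 ± 4.54 in WT beside 12.1 ± 4.43 in Smad2_KO1 and 13.6 ± 2.70 in Smad2_KO2, with no call.

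Dab2 encodes the endocytic adaptor that organizes the primitive endoderm epithelium. The interval over its downstream start, the CpG-rich stretch printed above, was the strongest of its window in both treatments (chr15:6386561-6386761 in Ctrl). Its level was 177 ± 19.2 normalized reads in WT beside 173 ± 19.0 in Smad2_KO1 and 167 ± 7.92 in Smad2_KO2 in Ctrl. In Paused it had 277 ± 34.8, 255 ± 10.0 and 251 ± 16.4. Neither KO line passed the test, with log2 fold changes between -0.14 and -0.03 (limma, adjusted p from 0.306 to 0.902). The one Dab2 call, inside the gene in Paused (chr15:6435871-6436071), had log2 fold changes of 0.50 and 0.43 (limma, adjusted p = 0.0225 and 0.0470). There 1 Smad2_KO2 library, at 39.3, lay below all WT libraries (41.1 to 43.2), and 17 of 24 alternatives lost the call. Leaving out any single library except Smad2_KO2 replicate 3 gave a larger adjusted p in limma of 0.0529 to 0.171.

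**Figure D3:**
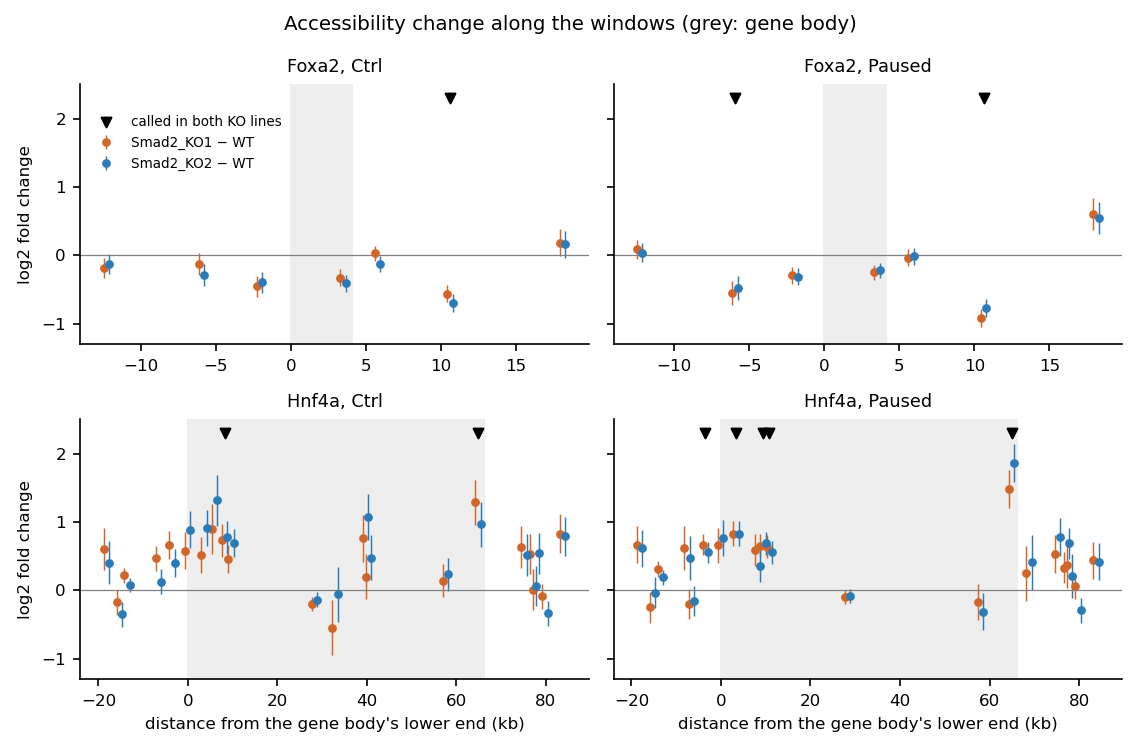
Log2 fold change against WT (points, with SE bars; orange Smad2_KO1, blue Smad2_KO2) of each tested interval along the Foxa2 and Hnf4a windows, by distance in kb from the lower end of the gene body (grey), with triangles above intervals called in both KO lines. At Foxa2 the lowest values lie 6.4 kb past the gene's higher end, which is its start side. At Hnf4a most points lie above 0.

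Foxa2 encodes a forkhead pioneer factor of visceral and definitive endoderm, and it lies on the minus strand, so that its starts are at the higher end of the gene body. An interval 6.41 kb upstream of its outermost start fell in both KO lines and both treatments. In Ctrl (chr2:148053380-148053580) WT had 163, 153, 129 and 141 normalized reads. Smad2_KO1 had 95.8, 99.7, 97.5 and 103, and Smad2_KO2 had 86.2, 96.5, 68.0 and 116. The highest KO library stayed below the lowest WT library. This was a log2 fold change of -0.56 ± 0.13 in Smad2_KO1 and -0.69 ± 0.13 in Smad2_KO2 (± SE; adjusted p in limma = 0.00261 and 0.000223).

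In Paused that upstream Foxa2 interval (chr2:148053384-148053584) had 153, 112, 110.05 and 122 normalized reads in WT. Smad2_KO1 had 59.9, 58.9, 71.7 and 68.5, and Smad2_KO2 had 60.9, 70.5, 78.6 and 77.7. The KO levels were 64.7 ± 6.34 and 71.9 ± 8.17 (SD, n = 4) beside 124 ± 20.1 in WT, with a clear gap between the groups. Relative to WT the log2 change was -0.92 ± 0.13 for Smad2_KO1 and -0.77 ± 0.13 for Smad2_KO2 (± SE; adjusted p in limma = 6.75e-06 and 8.72e-05). All 24 alternatives kept the Paused call, and in Ctrl 1 of 24, leaving out WT replicates 1 and 2 together, lost it at an adjusted p of 0.0517 in limma. The authors' deposited table gives the interval a log2 fold of -0.57 in Ctrl and -0.81 in Paused for all KO libraries against WT, with false discovery rates of 1.52e-06 and 1.43e-10.

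Fold changes elsewhere in the Foxa2 window were smaller. The interval nearest its starts had 132 ± 14.6 normalized reads in WT beside 106 ± 11.2 in Smad2_KO1 and 99.9 ± 15.1 in Smad2_KO2 in Ctrl (chr2:148046246-148046446). It passed in Smad2_KO2 and not in Smad2_KO1, at -0.41 and -0.32 (limma, adjusted p = 0.0256 and 0.0806), and in Paused it passed in neither. A Paused interval 5.86 kb beyond the other end (chr2:148036822-148037022) fell by 0.55 and 0.48 on the log2 scale (limma, adjusted p = 0.0210 and 0.0453), and 9 of 24 alternatives lost that call. In 8 of these the library left out was WT replicate 1 or 2, Smad2_KO1 replicate 1, 2 or 3, or Smad2_KO2 replicate 2, 3 or 4, at a larger adjusted p in limma of 0.0515 to 0.153. Of the 7 tested Foxa2 intervals, 5 were lower in both KO lines in each treatment. The share of all tested intervals lower in both KO lines was not computed, and these lines were hard to tell apart. The Foxa2 intervals had a median log2 fold change of -0.20 in Ctrl and -0.23 in Paused. The median was negative under each scaling tried, between -0.27 and -0.20 in Ctrl and between -0.34 and -0.15 in Paused.

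Hnf4a encodes a nuclear receptor that runs hepatocyte and visceral endoderm gene programmes, and its window had the most tested intervals of the 9 genes. In Ctrl 2 of its 21 tested intervals (9.52%) were called and in Paused 5 of 20 (25%), all of them higher in the KO lines. Among all tested intervals 7.15% were called in Ctrl (3.95% higher) and 13.9% in Paused (9.01% higher). By share Foxa2 was above Hnf4a in both treatments, with 1 of 7 (14.3%) and 2 of 7 (28.6%), and Sox7 in Paused, with 2 of 6 (33.3%). These shares rest on few calls per gene, and their differences from all intervals were not tested. With DESeq2 size factors or TMM factors Foxa2 had 3 calls in Ctrl and Hnf4a 0, where 7.58% and 7.51% of all intervals were called. An interval inside the gene, near its higher end, was called in both treatments. In Ctrl (chr2:163571610-163571810) WT had 4.27, 5.37, 5.48 and 8.63 normalized reads. Smad2_KO1 had 18.8, 19.5, 16.9 and 9.24, and Smad2_KO2 had 14.0, 18.2, 8.5 and 10.1. One Smad2_KO2 library lay just below the highest WT library, and the others were above all WT libraries. All WT values were under 10, the level needed in at least 4 libraries for a test. The interval was thus tested only through its KO libraries. On the log2 scale the KO lines differed from WT by 1.29 ± 0.33 and 0.96 ± 0.33 (± SE; adjusted p in limma = 0.00649 and 0.0475). This Ctrl call was lost in 15 of 24 alternatives, among them all 3 other scalings. Single libraries whose removal ended it were WT replicates 1 to 3, Smad2_KO1 replicates 1 to 3 and Smad2_KO2 replicates 1, 2 and 4 (limma, larger adjusted p from 0.0539 to 0.188).

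In Paused the same Hnf4a interval (chr2:163571624-163571824) had 7.56, 6.44, 3.24 and 7.95 normalized reads in WT. Smad2_KO1 had 19.0, 18.1, 20.7 and 16.9, and Smad2_KO2 had 23.0, 26.3, 30.3 and 19.7. All WT values were under 10, as in Ctrl, so the interval was again tested only through its KO libraries. The lowest KO library had more than any WT library by a wide gap. This was a log2 fold change of 1.49 ± 0.28 in Smad2_KO1 and 1.86 ± 0.28 in Smad2_KO2 (± SE; adjusted p in limma = 0.000215 and 1.11e-05), and all 24 alternatives kept the call. No other member interval was called with a log2 fold change of at least 1 in each KO line, in either treatment.

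The other Hnf4a calls in Paused lay around the upstream start. The named one, inside the gene (chr2:163510096-163510296), had 22.7, 29.0, 42.1 and 23.8 normalized reads in WT. Smad2_KO1 had 59.9, 63.4, 37.1 and 49.7, and Smad2_KO2 had 54.9, 50.2, 51.6 and 49.2. One Smad2_KO1 library fell within the WT range, below the WT library at 42.1. Its log2 fold change was 0.83 in both KO lines (limma, adjusted p = 0.00134 and 0.00139), kept in all 24 alternatives. The remaining calls, singled out after their values were seen, began at 163503245, 163516080 and 163517546 on chromosome 2, with log2 fold changes between 0.55 and 0.69. In Ctrl the call near this start, at chr2:163514920-163515120, had 14.4 ± 4.97 in WT, 23.7 ± 4.14 and 24.5 ± 4.49 (limma, adjusted p = 0.0372 and 0.0279), and 13 of 24 alternatives lost it. Without WT replicate 3 or 4, Smad2_KO1 replicate 1 or 3, or Smad2_KO2 replicate 1, 2 or 4 the larger adjusted p in limma was 0.0513 to 0.173.

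At the printed upstream start of Hnf4a (chr2:163506639-163506839 in Ctrl) the level was low: 12.8 ± 4.28 normalized reads in WT beside 19.7 ± 7.37 in Smad2_KO1 and 23.6 ± 5.04 in Smad2_KO2. Only Smad2_KO2 passed, with log2 fold changes of 0.58 and 0.88 in Ctrl (limma, adjusted p = 0.154 and 0.0247) and 0.65 and 0.76 in Paused (adjusted p = 0.0711 and 0.0355). At the downstream start the Ctrl interval had 9.41 ± 3.42, 10.7 ± 2.95 and 13.9 ± 5.62 and was not called, and the Paused interval was too weak to be tested. The strongest Hnf4a interval of the Paused window (chr2:163535023-163535223), inside the gene, had 208 ± 23.5, 193 ± 18.7 and 195 ± 5.00 and was not called. Over the whole window 17 of 21 tested intervals in Ctrl and 15 of 20 in Paused were higher in both KO lines, with medians of 0.50 and 0.49. The share of all tested intervals higher in both KO lines was not computed. Some intervals of this window, in Ctrl and at matching places in Paused, lie inside the body of another gene, R3hdml. Most Hnf4a intervals were weak, with a median level of 16.35 normalized reads in Ctrl and 20.9 in Paused, and all intervals of the tables under a level of 50 had median changes of 0.15 and 0.23. Whether the level accounts for part of the Hnf4a values was not tested. These Hnf4a medians were 0.28 to 0.50 across the scalings and treatments. With the other scalings none of the Ctrl intervals was called, and in Paused 5, 5 and 4 were. Of all Paused intervals 14.7%, 14.4% and 9.65% were then called.

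Hhex encodes a homeobox repressor of the anterior visceral endoderm. Its GC-rich start, printed above, was open in every library (chr19:37434636-37434836 in Ctrl): 239 ± 38.2 normalized reads in WT beside 228 ± 15.8 in Smad2_KO1 and 228 ± 13.0 in Smad2_KO2. In Paused it had 309.95 ± 90.4, 269.99 ± 31.4 and 252 ± 29.6, where the WT libraries ran from 214 to 415 and enclosed all KO libraries. Neither KO line passed in either treatment (limma, adjusted p from 0.132 to 0.788). The only Hhex call, 16.2 kb past the gene in Ctrl (chr19:37456883-37457083), rose from 13.1 ± 4.73 in WT to 26.5 ± 5.86 and 23.1 ± 7.49. Relative to WT the log2 change was 1.02 for Smad2_KO1 and 0.79 for Smad2_KO2 (limma, adjusted p = 0.00625 and 0.0382). One Smad2_KO2 library, at 14.0, fell within the WT range, and 9 of 24 alternatives lost the call. They included leaving out WT replicate 4 or Smad2_KO2 replicate 2, 3 or 4, at a larger adjusted p in limma of 0.0548 to 0.217.

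**Figure D4:**
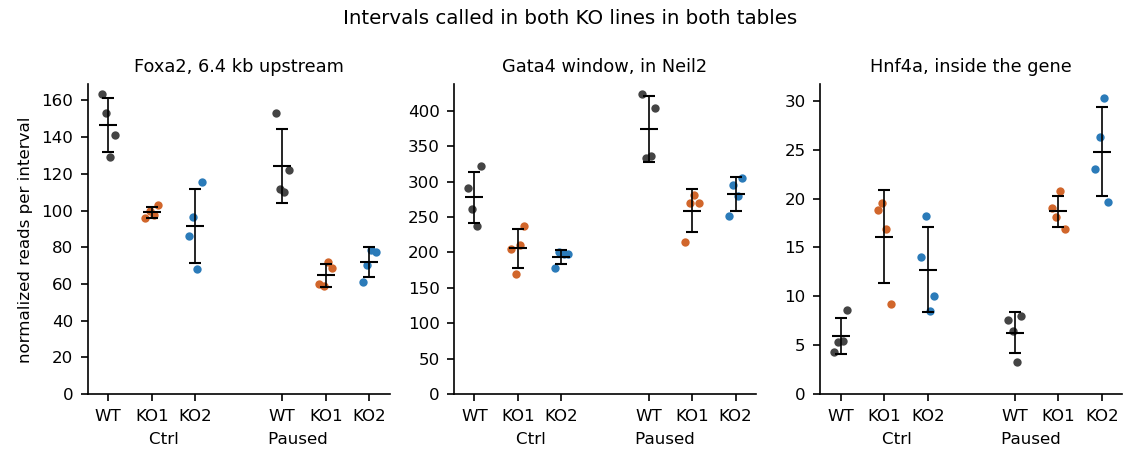
Normalized reads per interval in each library (points; WT grey, Smad2_KO1 orange, Smad2_KO2 blue) with mean and SD (bars, n = 4), for the 3 member intervals called in both KO lines in both treatments. The Foxa2 and Gata4 window intervals are lower in every KO library than in WT, and the Hnf4a interval is higher in the KO lines. The Hnf4a interval reached the level needed for a test through KO libraries alone. The treatments were normalized separately.

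Across the treatments, 86 member intervals matched one to one, each covering at least 50% of the other, and all were tested in both. Of these, 72 had the same sign of the mean KO difference in Ctrl and Paused. In Ctrl 5 of them were called and in Paused 11, and 3 were called in both with the same sign: the upstream Foxa2 interval, the Gata4 window interval inside Neil2, and the Hnf4a interval near the gene's higher end. Among all tested intervals, matched or not, 7.15% were called in Ctrl and 13.9% in Paused. The shares of all matched intervals with the same sign, or called in both treatments, were not computed, so these counts do not set the members apart. No matched member interval had KO libraries wholly above WT in one treatment and wholly below in the other. The tables were normalized separately, so the effect of pausing was described and not tested. In WT the Paused over Ctrl ratio had a median of 1.13 over the matched member intervals, beside 1.06 over all 215826 matched intervals. By gene it ranged from 0.967 at Foxa2 and 0.985 at Hnf4a to 1.34 at Dab2 and 1.501 at Gata6. In Smad2_KO1 Gata6 again had the highest median ratio, 1.402, and in Smad2_KO2 Dab2 had 1.38 and Gata6 1.365.

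**Figure D5:**
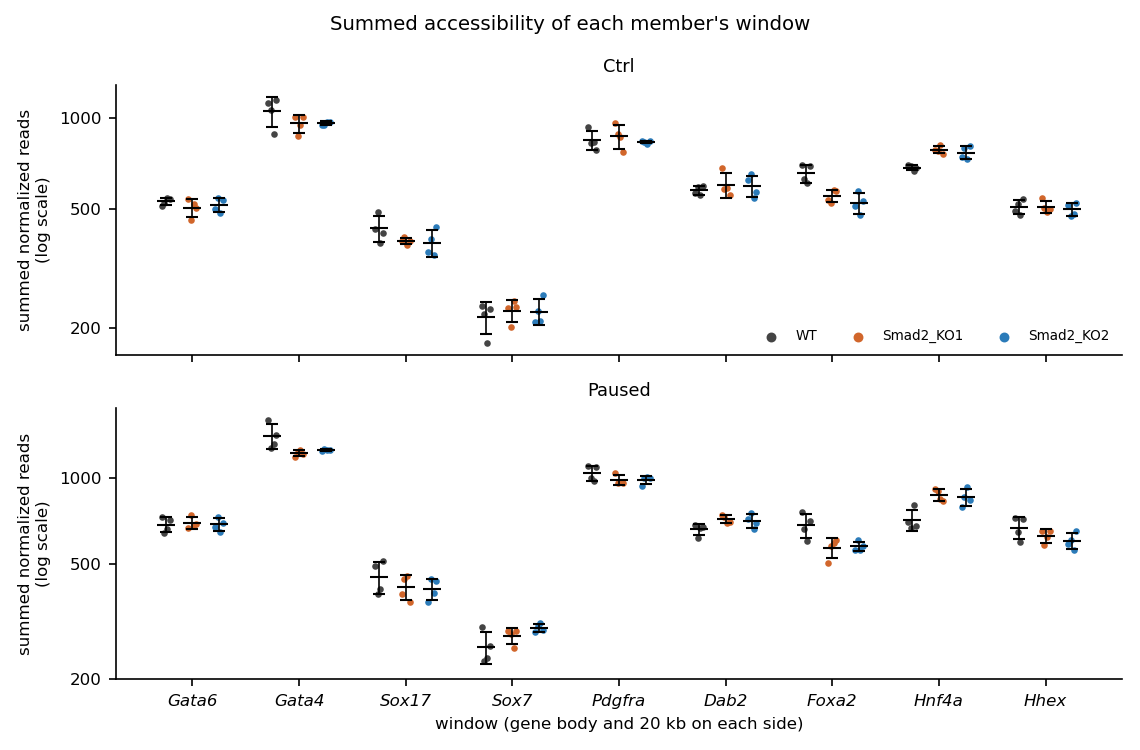
Summed normalized reads over the intervals of each gene's window per library (points, log scale) with mean and SD (bars, n = 4), for WT (grey), Smad2_KO1 (orange) and Smad2_KO2 (blue). Windows differ in length, so levels compare within a gene. In Ctrl all KO libraries are below WT at Foxa2 and above WT at Hnf4a. In Paused the means of these genes differ in the same directions but the libraries overlap. Apart from Gata4 in Paused the other sums overlap WT.

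The sums over each window use the same values as the intervals, with the deposited scaling, so they add no separate support. The share of all gene windows in which KO and WT libraries do not overlap was not computed. The Foxa2 sum in Ctrl was 696, 626, 608 and 692 normalized reads in WT, 535, 523, 574 and 572 in Smad2_KO1, and 510.06, 574, 475 and 531 in Smad2_KO2. The KO libraries were all below WT, with ratios of 0.841 and 0.797, and in Paused the ratios were 0.835 and 0.845 with a small overlap. At Hnf4a in Ctrl the sums were 699.6, 693, 667 and 682 in WT, 785, 781, 814 and 764 in Smad2_KO1, and 743, 795, 732 and 806 in Smad2_KO2. All KO libraries were above WT, at ratios of 1.15 and 1.12, and in Paused the ratios were 1.22 and 1.20, with overlap. The Hnf4a sums include intervals inside another gene, R3hdml, in Ctrl and at matching places in Paused. Among these is the strongest of the Ctrl window (chr2:163493135-163493335), at 185 ± 5.88 in WT, 216 ± 13.0 in Smad2_KO1 and 198 ± 33.9 in Smad2_KO2, not called. Gata4 sums in Paused, which include the interval inside Neil2, were 0.872 and 0.898 of WT without overlap. In every other gene and treatment the sums overlapped, with ratios between 0.896 and 1.17. Among the strongest intervals of the windows, all of equal width, the mean level over the 12 Paused libraries was 305 at the Gata4 window, 291 at Pdgfra, 277 at Hhex, 261 at Dab2, 251 at Gata6, 205 at Sox17, 198.5 at Hnf4a, 143 at Foxa2 and 137 at Sox7.

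For each member, the distant protein-coding gene whose summed window varied most like its own was found by Pearson r over the 12 libraries of each treatment. For Hnf4a it was Tmod3 (r = 0.95 in Ctrl and 0.917 in Paused, of 16927 genes compared), for Foxa2 Msn (0.927 and 0.906) and for Gata4 Pjvk (0.912 and 0.931). Sox7 paired with Ndufaf2 (0.855 and 0.873), Dab2 with Rhobtb3 (0.808 and 0.886), Sox17 with Nr2f1 (0.777 and 0.891), Pdgfra with Rac2 (0.894 and 0.685), Hhex with Odc1 (0.727 and 0.812) and Gata6 with Pdcd2 (0.716 and 0.82). Each gene was picked for the highest mean r of all genes compared, so high values follow from the choice. Both windows of a pair also share the differences of line and depth between the same libraries.

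Other genes of the endoderm lineages showed call shares of the same order. Among all tested intervals 7.15% were called in Ctrl (3.95% higher and 3.2% lower) and 13.9% in Paused (9.01% higher and 4.92% lower). The basement membrane genes that primitive and parietal endoderm secrete (laminin, collagen IV, nidogen, perlecan, Sparc and Serpinh1) had 25 of 293 tested intervals (8.53%) called in Ctrl, 16 higher and 9 lower, and 37 of 273 (13.6%) in Paused, 31 higher and 6 lower. Visceral endoderm genes such as Afp, Ttr and Cubn had 13 of 137 (9.49%) in Ctrl, 4 higher and 9 lower, and 17 of 125 (13.6%) in Paused, 9 higher and 8 lower. Parietal endoderm genes such as Plat and Thbd had 4 of 80 (5%) and 14 of 90 (15.6%). The medians of the log2 fold change were 0.13, 0.02 and -0.02 for these lists in Ctrl and 0.16, 0.12 and 0.09 in Paused, beside 0.08 and 0.12 for all intervals. Pluripotency genes, which mark the labelled cell type, had 10 of 176 intervals (5.68%) called in Ctrl and 16 of 164 (9.76%) in Paused. Trophoblast genes had 6 of 122 (4.92%) and 9 of 115 (7.83%), and mesendoderm genes 3 of 38 (7.89%) and 5 of 40 (12.5%). All 9 pluripotency genes had intervals in both treatments, as did every gene of the other lists, so the presence of intervals did not separate cell types.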

How the data were processed

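Per the labels, 24 ATAC-seq libraries were made. Per the submitters' processing notes, the tools were FastQC, Trim Galore, Bowtie2 2.4.1, MACS3 3.0.3 and DiffBind 3.16.0 with build mm10; their settings, read shifting and duplicate handling are not given in the sources used here. The authors deposited 1 table per treatment with a normalized signal per interval and library, separately scaled, and their own comparison (log2 fold, p-value and false discovery rate), quoted where named. Each signal value is a whole number of reads times 1 factor per library (tolerance 0.0051); in 4 columns the factor is close to 1. The main test was limma 3.58.1 in R 4.3.3 (trend) on log2(value + 1), which understates changes of low intervals, over intervals with 10 or more in at least 4 libraries, all 12 libraries of a table, Benjamini-Hochberg adjusted. The level needed for a test was counted over all lines, so an interval low in WT could be tested through KO libraries alone. edgeR 4.0.16 (quasi-likelihood) and DESeq2 1.42.0 (Wald) were run on the recovered reads. The test scripts were tested on simulated data. Windows came from a GRCm38.p6 gene table without strand or exons. Named intervals were, per gene and treatment, that at an annotated start (or gene end), the strongest, and up to 2 called ones with the largest change. The members and lists were chosen with earlier results of these data known.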

Additional observations from a re-analysis of the deposited data

Results flagged for a closer look

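Among 186 groups of 4 libraries (line, treatment and named interval or window sum), 10 had 1 library far from the other 3, where chance gives about 9.3. Lower than the rest of their group were WT replicate 3 at the Dab2 start interval in Ctrl (147.85 normalized reads, next 185.49), Smad2_KO2 replicate 1 at the Gata4 window interval in Ctrl (178.37), Smad2_KO1 replicate 1 at that interval in Paused (214.74), WT replicate 4 at the called Dab2 interval in Paused (41.05), Smad2_KO1 replicate 2 at the Pdgfra start in Paused (5.44) and Smad2_KO1 replicate 3 in the Sox7 window sum in Paused (255.69). Higher were Smad2_KO1 replicate 1 at the downstream Hnf4a start (13.3), at the called interval past Pdgfra (34.21) and in the Pdgfra window sum (1037.6), and WT replicate 1 at the strongest Sox7 interval (160.84), all in Paused. The Gata4 window call held without either low library.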

How the results depend on the processing

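The 6 member calls in Ctrl and 16 in Paused moved by over 1.5 times in these cases. With the KO libraries as 1 group, which needs 1 test in place of 2, they were 28 and 29 (25.7% and 26.4%, where 17.6% and 28.7% of all intervals were called). With KO libraries of a number averaged there were 17 in Ctrl (15.6%, against 13% of all). Without both WT replicates 3 and 4 there were 2 in Ctrl (1.83%, against 3.29% of all). Without both WT replicates 1 and 2 there were 10 in Paused (9.09%, against 12.4%). The DESeq2 Wald test called 2 (1.83%, against 4.06% of all) and 8 (7.27%, against 8.89%). Cyclic loess gave 9 in Paused (8.18%, against 9.65%). Requiring an absolute log2 change of 1 or more left 0 and 1, for which the share of all intervals was not computed. Gene bodies without flanks gave 2 and 7 of 55 tested, and flanks of 50 kb gave 12 and 27 of 187. These windows hold other numbers of tested intervals than the 109 and 110 of the main counts, so the counts change with window size. Of all tested intervals 7.15% and 13.9% were called. Where not set by the alternative's construction, the cause was not tested. Leaving out 1 library gave 2 to 7 in Ctrl and 10 to 19 in Paused. In Ctrl it was 3 (2.75%) without WT replicate 3, Smad2_KO1 replicate 3, Smad2_KO2 replicate 1 or Smad2_KO2 replicate 2. In these cases 5.81%, 5.34%, 5.3% and 5.07% of all intervals were called. Without Smad2_KO2 replicate 4 it was 2 in Ctrl (1.83%, against 6.07%), and without Smad2_KO1 replicate 2 it was 10 in Paused (9.09%, against 9.74%). edgeR called 6 (5.5%, against 7.34% of all) and 16 (14.5%, against 13.7%). Replicate numbers were not taken to pair the samples, since not every same-numbered correlation was over 0.1: they were -0.0074 to 0.0634 between WT and KO libraries over both treatments, and between the KO lines 0.0082 to 0.109 in Ctrl and 0.034 to 0.187 in Paused. Across the KO lines 3 of 8 libraries in Ctrl and 7 of 8 in Paused (all but Smad2_KO2 replicate 3) correlated best with their own number, a hint from the data and not from the design. The fit with the replicate number as a block called 7 (6.42%, against 7.97% of all) and 17 (15.5%, against 16.2%). Of 19 named calls none reversed, 6 held in all 24 alternatives and 13 were lost in at least 1. Smad2_KO1 against Smad2_KO2 gave 0 calls throughout. Values under about 10 normalized reads rest on few reads, which limits the weak intervals.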
